A study of Homo sapiens with 4 samples.

Results

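The genes of 10 transcription factors that drive the conversion of stem cells into neurons, or that mark the kind of neuron made, were followed through a long-read sequencing experiment. They were taken by gene symbol from the deposited tables and were 10 of 77973 genes listed: NEUROG2, NEUROD1, NEUROD4, NHLH1 and BHLHE22 of the basic helix-loop-helix (bHLH) family, POU3F2 and POU4F1 of the POU family, the LIM-homeodomain gene ISL1, and the zinc finger genes MYT1 and MYT1L. Genes averaging 5 reads or more per library were tested, 13789 in all. Of the 10 factors, 9 were among them, and BHLHE22, with a mean of 4 reads, was not tested.

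The cells were neurons derived from the human stem cell line KOLF2.1J, which is induced pluripotent and established. Every library shared 3 features: a human NGN2 transgene (NGN2 is the protein of NEUROG2) switched on by 2 µg/mL doxycycline, a constitutive dCas9-BFP-KRAB construct for CRISPR interference, and a lentiviral guide RNA kept by puromycin selection of a pool of cells. The control library carried a non-targeting guide and received no drug. The knockdown library carried a guide against TDP-43, a protein that binds RNA and keeps cryptic exons out of it. The azacytidine library carried the non-targeting guide and received 5-azacytidine, a drug that blocks DNA methylation, at 5 µM over 72 hours, starting after the cells were plated on day 8. The combined library had the TDP-43 guide and the drug. Harvest was on day 12 or day 15, and the labels do not say which applied to these libraries. Each group was 1 library of PacBio Iso-Seq, so no value below has a replicate check and each test compares the reads of libraries, not conditions.

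In the formation of a neuron, NEUROG2 acts as a proneural gene: its protein pairs with E proteins such as TCF3 and TCF12, binds E-box DNA (CANNTG) and switches on a next tier of bHLH genes that includes NEUROD1, NEUROD4 and NHLH1. MYT1 and MYT1L belong to a family of zinc finger repressors that hold down non-neuronal programmes, and POU3F2 (BRN2) is used with MYT1L to turn fibroblasts into neurons. ISL1 and POU4F1 (BRN3A) are known as factors of sensory neurons, and ISL1 of motor neurons also, while POU3F2 and BHLHE22 are known from the layers of the cerebral cortex.

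DNA methylation, which azacytidine blocks, lies mainly on cytosines of CpG dinucleotides, so the CpG content of the factors' promoters was counted in the 250 bases before each start site (RefSeq, GRCh38.p14). Windows of 9 of the 10 factors were counted, 12 windows in all since MYT1L has several starts. BHLHE22 was left out of this count. Shown here are the windows of POU3F2 and POU4F1, which had fewer reads in both libraries with azacytidine than in both without, and of NEUROG2 and NHLH1, whose highest level was in the azacytidine library; these 4 were chosen after their values were seen. POU3F2 lies at chr6:98834324-98834573 on the plus strand, POU4F1 at chr13:78603553-78603802 on the minus strand, NEUROG2 at chr4:112516181-112516430 on the minus strand and NHLH1 at chr1:160366821-160367070 on the plus strand. Capitals mark each CpG, and each sequence runs 5′ to 3′ toward the start site.
POU3F2: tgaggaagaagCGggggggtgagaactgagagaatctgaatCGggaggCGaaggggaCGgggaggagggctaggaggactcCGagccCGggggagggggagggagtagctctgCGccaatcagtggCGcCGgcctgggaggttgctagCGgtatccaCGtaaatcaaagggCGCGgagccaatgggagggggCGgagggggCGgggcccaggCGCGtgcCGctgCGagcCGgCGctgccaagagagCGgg
POU4F1: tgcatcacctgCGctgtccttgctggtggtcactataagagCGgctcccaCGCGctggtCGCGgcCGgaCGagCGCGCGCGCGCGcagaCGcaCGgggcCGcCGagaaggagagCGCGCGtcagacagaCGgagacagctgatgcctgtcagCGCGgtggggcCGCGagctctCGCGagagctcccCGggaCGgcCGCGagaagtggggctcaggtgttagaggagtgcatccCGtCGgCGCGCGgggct
NEUROG2: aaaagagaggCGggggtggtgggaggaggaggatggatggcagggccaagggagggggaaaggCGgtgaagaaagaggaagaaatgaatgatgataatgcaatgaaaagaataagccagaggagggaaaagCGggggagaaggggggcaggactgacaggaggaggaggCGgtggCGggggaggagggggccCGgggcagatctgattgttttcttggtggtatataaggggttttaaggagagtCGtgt
NHLH1: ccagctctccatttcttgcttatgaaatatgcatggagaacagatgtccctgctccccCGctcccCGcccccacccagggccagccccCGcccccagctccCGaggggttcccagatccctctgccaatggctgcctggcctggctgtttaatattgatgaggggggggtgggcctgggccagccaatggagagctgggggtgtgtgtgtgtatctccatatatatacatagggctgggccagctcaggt
POU4F1 has 37 CpGs in its window and POU3F2 has 22, against 7 for NEUROG2 and 4 for NHLH1. The median over 35116 windows of the table is 11, with quartiles of 3 and 23. By direction alone, called or not, the number of CpGs did not sort the factors. NEUROD1, also highest in the azacytidine library, has 24. NEUROD4 has 6, with log2 ratios of -0.50 for azacytidine over control and -0.09 for combined over knockdown. The intervals of both ratios include 0. Neither gene was called in any pair of libraries described below, so their directions are uncertain. Of the others, ISL1 has 27 and MYT1 2, and the MYT1L windows have between 2 and 7. Methylation was not measured in these libraries, so these counts describe the sequence alone. An E-box, CANNTG on either strand, is in 7 of the 12 windows and in 61.8% of all windows. The form CAGATG or its reverse complement CATCTG is in the NHLH1 window and in 1 MYT1L window, and in 12.2% of all windows.

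The libraries held 595158 (control), 767621 (knockdown), 466337 (azacytidine) and 477622 (combined) reads assigned to genes. Read numbers below are given in that order of libraries. Levels are reads scaled to the effective library size (CPM, with TMM scaling), and 95% intervals are exact and cover counting error only, since amplified reads are not independent molecules. The guide's target, TARDBP, had 104, 72, 73 and 43 reads, log2 ratios of -0.78 for knockdown over control (adjusted p = 0.00681) and -0.73 for combined over azacytidine (adjusted p = 0.0738), both under 2-fold. A gene was called for a treatment where both pairs of libraries that share no library (for azacytidine, azacytidine over control and combined over knockdown; for the knockdown, knockdown over control and combined over azacytidine) had a Benjamini-Hochberg adjusted p under 0.05 by an exact binomial test, at least 2-fold, in the same direction.

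None of the 9 tested factors was called for azacytidine in both pairs, where 2.56% of all genes tested were called higher and 6.19% lower. None was called for the knockdown, against 0.392% higher and 0.363% lower. In single pairs, NHLH1 was called higher and POU3F2 lower in azacytidine over control (6.07% and 10.4% of all genes), and MYT1L higher in knockdown over control (4.71%, with 3.11% lower). No factor was called in combined over knockdown (10.1% higher, 15.2% lower) or in combined over azacytidine (3.7% and 3.27%). With unadjusted p under 0.05 in both pairs, ISL1 and POU3F2 were lower with azacytidine (11% of all genes were) and none was higher (7.08%), and MYT1L was higher with the knockdown (3.09%) and none lower (1.78%). Of the 9 factors, 8 kept 1 direction of the azacytidine ratio in both pairs, 4 higher and 4 lower, as did 69.6% of all genes. For the knockdown, 4 of 9 did, against 56.5% of all genes. The factors did not move as a block: their median log2 ratio was 0.23 for azacytidine over control and -0.09 for combined over knockdown (0.02 with total counts as library sizes), beside medians of 0.02 and -0.02 over all genes tested. Their summed level was 792 CPM in the control, 896 in the knockdown, 727 in the azacytidine and 722 in the combined library.

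**Figure D1:**
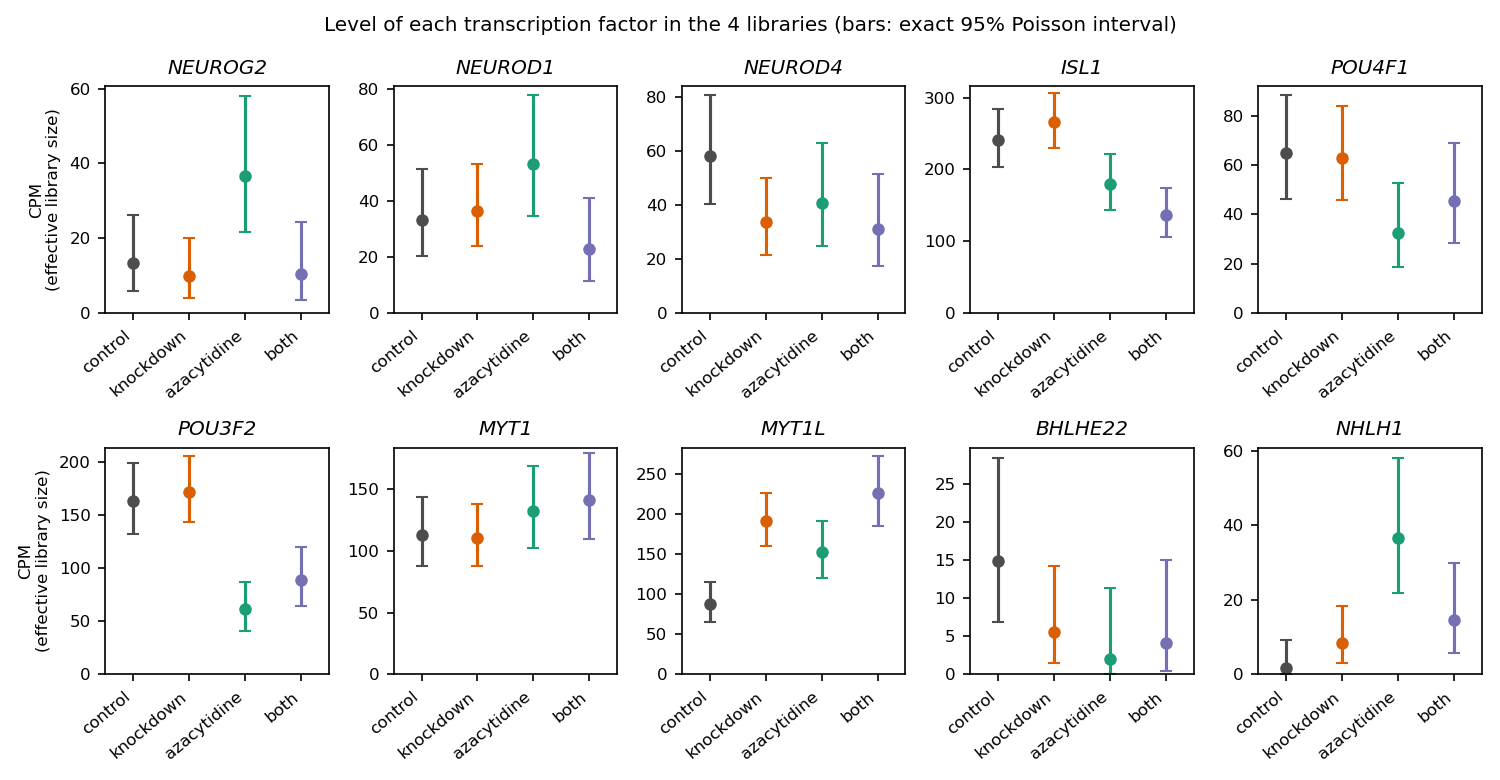
Level of each transcription factor gene (y axis: CPM on effective library size, a separate scale per gene) by library (both: the combined library); points are single libraries and bars are exact 95% Poisson intervals. POU3F2 is at 163 and 172 without azacytidine and at 61.1 and 89.2 with it, and MYT1L is lowest in the control at 88.1.

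POU3F2 (chromosome 6, 98834574 to 98839458, plus strand, hg38; 1 exon) is the cortical and reprogramming POU factor. It had 98 reads in the control, 123 in the knockdown, 30 in the azacytidine and 43 in the combined library, or 163, 172, 61.1 and 89.2 CPM. Both libraries with azacytidine were below both without it, and their Poisson intervals did not overlap those of the others. Azacytidine over control was 2.64-fold lower (log2 -1.40, 95% interval -2.06 to -0.81, adjusted p = 1.64e-05), and this pair was called. Combined over knockdown was 1.91-fold lower (log2 -0.94, -1.48 to -0.43, adjusted p = 0.000841), past the p threshold and short of 2-fold. The knockdown ratios were 0.08 and 0.54 on the log2 scale (adjusted p = 0.922 and 0.393). In an additive edgeR quasi-likelihood model over the 4 libraries, with the interaction as error, POU3F2 was the one factor called for azacytidine (log2 -1.17, adjusted p = 0.0382), and DESeq2 with the same model did not call it (adjusted p = 0.492). In bulk RNA, fewer cells of a type and less RNA per cell cannot be told apart, here and in all results that follow.

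ISL1 (chromosome 5, 51383448 to 51394730, plus strand) had the most reads of the 10 over all libraries. It had 145, 190, 88 and 66 reads, or 241, 266, 179 and 137 CPM. The combined library was lowest, and its interval lay below those of both libraries without the drug. Combined over knockdown was 1.93-fold lower (log2 -0.95, -1.38 to -0.54, adjusted p = 1.63e-05), just short of 2-fold. Azacytidine over control was 1.34-fold lower (log2 -0.42, -0.83 to -0.04), with an adjusted p of 0.105. The difference between these ratios, -0.52, had an adjusted p of 0.330, so they were not shown to differ. Both depended on how reads were counted. Combined over knockdown was -0.46 over reads assigned to its transcripts, -0.98 over uniquely assigned reads and -1.30 over full-length reads. Azacytidine over control was -0.50, -0.05 and 0.15 in the same order. None of these was called.

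POU4F1 (chromosome 13, 78598362 to 78603552, minus strand), the sensory neuron POU factor, had 39, 45, 16 and 22 reads, or 64.9, 62.9, 32.6 and 45.7 CPM. As for POU3F2, the azacytidine library was lowest and the combined library next, but the intervals of neighbouring libraries overlapped. The azacytidine over control ratio was -0.97 (-1.93 to -0.12, adjusted p = 0.0816) and the combined over knockdown ratio was -0.45 (-1.27 to 0.30, adjusted p = 0.418). Neither pair passed. Its knockdown ratios were -0.05 and 0.47, both with intervals that include 0.

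NEUROG2 (chromosome 4, 112513516 to 112516180, minus strand) is the gene of the inducing factor itself. The counts cannot tell reads of the transgene from reads of the cells' own gene. It had 8 reads in the control, 7 in the knockdown, 18 in the azacytidine and 5 in the combined library, or 13.3, 9.79, 36.7 and 10.4 CPM. The azacytidine library was highest, with an interval of 21.7 to 57.9 CPM. The other 3 could not be told apart, with intervals of 5.74 to 26.2, 3.93 to 20.2 and 3.37 to 24.2 CPM. The azacytidine interval overlapped those of the control and combined libraries, and lay above that of the knockdown library. Azacytidine over control was 2.67-fold higher (log2 1.41, 0.19 to 2.87, adjusted p = 0.0699), and combined over knockdown was 0.12 (-1.91 to 1.96). Combined over azacytidine was -1.72 (-3.61 to -0.34, adjusted p = 0.0830). No pair passed, and the difference between the azacytidine ratios with and without the knockdown was -1.29 (adjusted p = 0.704).

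NEUROD1 (chromosome 2, 181668295 to 181680827, minus strand), a direct target of NEUROG2 in neuron formation, had 20, 26, 26 and 11 reads, or 33.3, 36.4, 53.0 and 22.8 CPM. Again the azacytidine library was highest and the combined library lowest, with intervals that overlapped (34.6 to 77.6 against 11.4 to 40.8 CPM). The azacytidine ratio was 0.66 without the knockdown and -0.63 with it (adjusted p = 0.312 and 0.392). This was the 1 tested factor whose azacytidine ratio had opposite signs in the pairs. The difference of -1.30 had an unadjusted p of 0.0494 and an adjusted p of 0.281.

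NHLH1 (chromosome 1, 160367071 to 160372846, plus strand), a bHLH factor of newly born neurons, had 1 read in the control, 6 in the knockdown, 18 in the azacytidine and 7 in the combined library. The azacytidine library was highest at 36.7 CPM (21.7 to 57.9), above the control at 1.66 (0.0421 to 9.26) and the knockdown library at 8.39 (3.08 to 18.3), while the interval of the combined library, 14.5 (5.84 to 29.9), overlapped it. Azacytidine over control had a log2 ratio of 3.92 with a wide interval of 1.80 to 9.84, set by the single control read (adjusted p = 0.000110), and this pair was called. Combined over knockdown was 0.78 (-1.01 to 2.64, adjusted p = 0.563). The difference between the pairs was -3.14 (unadjusted p = 0.0269, adjusted p = 0.198). Thus NEUROG2, NEUROD1 and NHLH1 each had their highest level in the azacytidine library, and none of the 9 tested factors was called for a difference between backgrounds, where 2.16% of all genes were called higher and 3.47% lower. At unadjusted p under 0.05 there were 2, NEUROD1 and NHLH1. For both, the azacytidine ratio was lower with the knockdown than without (9.77% of all genes, with 7.91% higher).

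NEUROD4 (chromosome 12, 55019974 to 55030017, plus strand), the third neurogenic bHLH factor of the cascade, had 35, 24, 20 and 15 reads, or 58.2, 33.6, 40.7 and 31.1 CPM. It was highest in the control, unlike NEUROG2 and NEUROD1, and all 4 intervals overlapped. The azacytidine ratios were -0.50 and -0.09 and the knockdown ratios -0.79 and -0.38, none past the adjusted threshold. BHLHE22, on chromosome 8, had 9, 4, 1 and 2 reads. Its azacytidine ratios had wide intervals, -8.33 to -0.03 over control and -3.90 to 2.37 over the knockdown, and so did its knockdown ratios, -3.57 to 0.42 and -3.24 to 6.91.

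For likeness of pattern, genes averaging 20 reads or more were ranked by the Euclidean distance between their 4 centred log2 CPM values and those of NEUROG2. The nearest were HPS1 with 45, 45, 115 and 32 reads (distance 0.167), EMC8 with 18, 16, 35 and 12 (0.186) and ACADM with 49, 43, 85 and 33 (0.311). With 4 libraries behind each pattern this is a description only.

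MYT1L (chromosome 2, 1789113 to 2331664, minus strand), the pan-neuronal zinc finger repressor, had 53 reads in the control, 137 in the knockdown, 75 in the azacytidine and 109 in the combined library, or 88.1, 192, 153 and 226 CPM. The control was lowest, and its interval lay below those of the other 3. Knockdown over control was 2.16-fold higher (log2 1.11, 0.65 to 1.61, adjusted p = 2.40e-05), and this pair was called. Combined over azacytidine was 1.48-fold higher (log2 0.56, 0.13 to 1.01, adjusted p = 0.0772), and was not. Azacytidine over control was 0.79 (0.27 to 1.33, adjusted p = 0.0158), under 2-fold, and combined over knockdown was 0.24 (adjusted p = 0.335). The knockdown over control ratio of MYT1L turned on how reads were counted: summed over reads assigned to its transcripts it was 0.08, over uniquely assigned reads 0.69, and with total counts as library sizes 0.99, none of them called.

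Its close relative MYT1 (chromosome 20, 64102394 to 64242253, plus strand) was the steadiest of the factors by read number, with 68, 79, 65 and 68 reads, or 113, 110, 132 and 141 CPM. All 4 intervals overlapped. The azacytidine ratios were 0.23 (-0.29 to 0.74) and 0.35 (-0.14 to 0.84), and the knockdown ratios were -0.04 (-0.52 to 0.46) and 0.09 (-0.42 to 0.61). These intervals leave out a 2-fold difference in either direction in each pair.

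**Figure D2:**
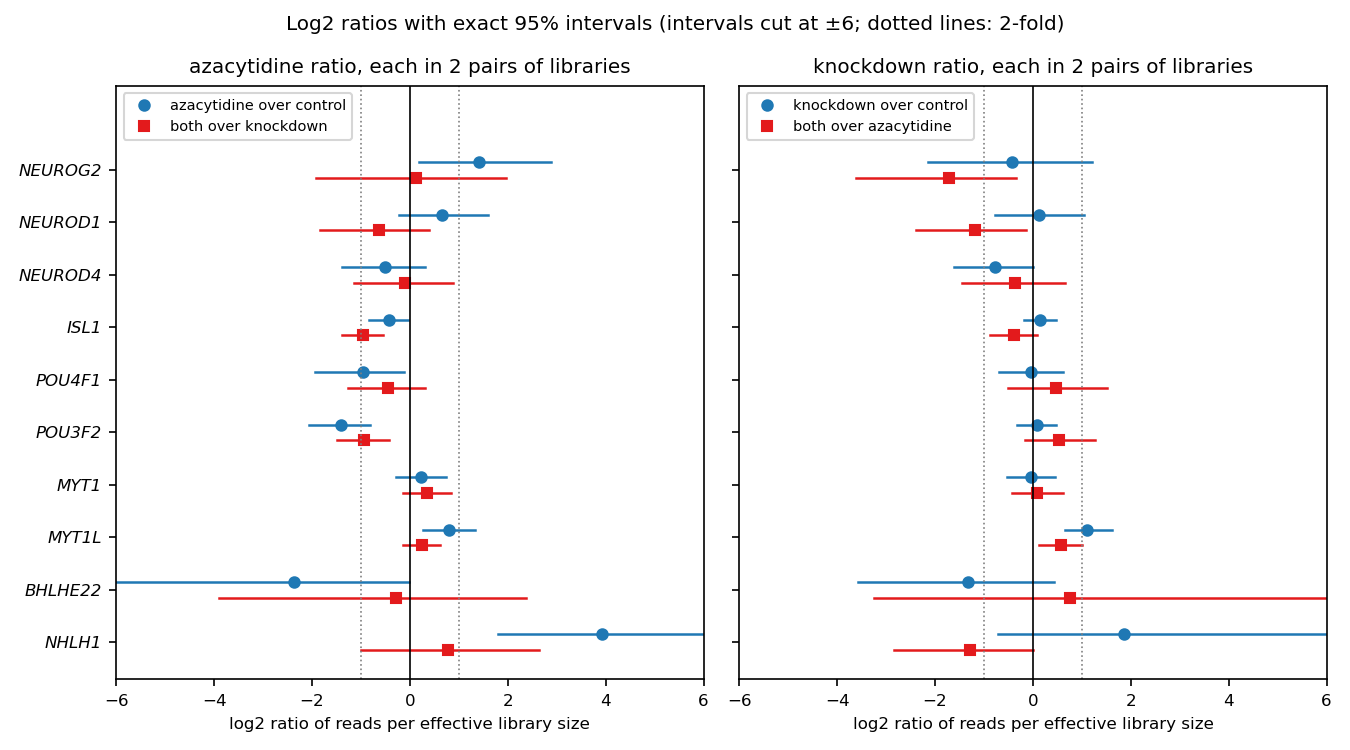
Log2 ratios (x axis) of the 10 transcription factor genes for azacytidine (left) and for the knockdown (right), each in 2 pairs of libraries that share no library; points are ratios, bars exact 95% intervals cut at ±6 and dotted lines mark 2-fold. POU3F2 and ISL1 lie left of 0 in both azacytidine pairs with intervals that leave out 0, and MYT1L lies right of 0 in both knockdown pairs.

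Long reads also show which part of a gene each read covered. Reads assigned to a gene may be assigned to one of its transcripts, and among those some cover the transcript in full. Over the 4 libraries, POU3F2, with 1 exon, had 239 full-length reads of 242 transcript reads (98.8%, Wilson 95% interval 96.4 to 99.6). POU4F1 had 0 of 119, which allows a share of up to 3.13% by the Wilson interval. NEUROG2 had 1 of 35 (2.86%, 0.506 to 14.5), MYT1L 11 of 187 (5.88%) and MYT1 18 of 194 (9.28%). NEUROD1 had 44.6%, ISL1 43.1%, NHLH1 39.1% and NEUROD4 24.2%, against a median of 27.9% over all genes averaging 20 reads or more. The main transcripts of MYT1 and MYT1L are 5614 and 7144 bases long, with 23 and 25 exons, while that of NEUROG2 has 2295 bases in 2 exons.

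The share of gene reads assigned to any transcript was lowest for MYT1L, at 50.0% (45.0 to 55.0), and ISL1, at 50.3% (45.9 to 54.7), against a median of 67.9% over the same genes. For MYT1L it differed between libraries. Of its reads, 10 of 53 had no transcript in the control, 85 of 137 in the knockdown, 39 of 75 in the azacytidine and 53 of 109 in the combined library. The transcript share was 81.1% (68.6 to 89.4) in the control and 38.0% (30.3 to 46.3) in the knockdown library, intervals that do not overlap. Over all genes it was 63.9% and 58.5% in these libraries. MYT1L reads with a transcript numbered 43, 52, 36 and 56, so the higher count in the knockdown library was made up mostly of reads with none. ISL1 had 66, 111, 39 and 27 reads with no transcript and 79, 79, 49 and 39 with one.

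**Figure D3:**
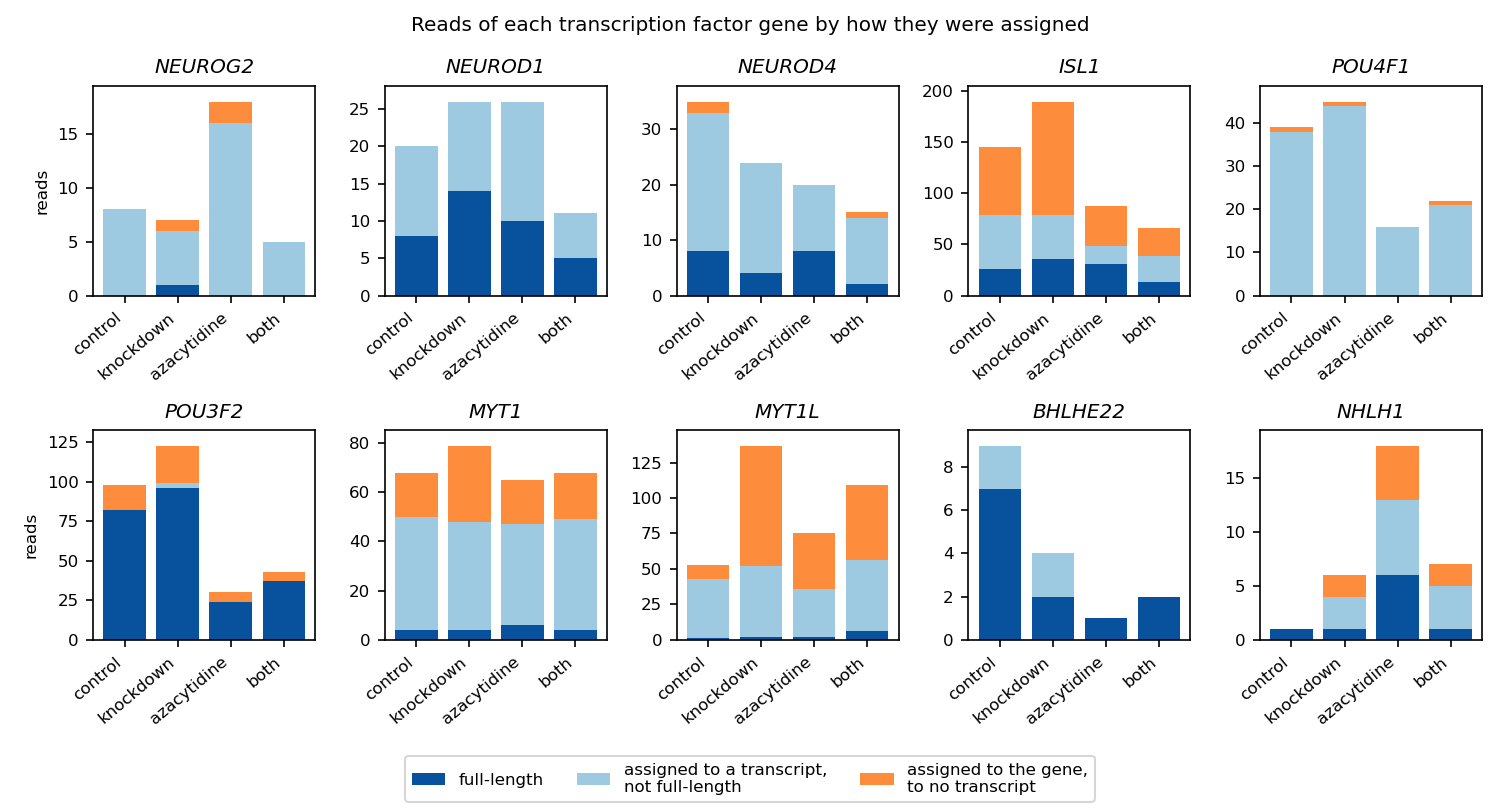
Reads of each gene (y axis, a separate scale per gene) in the 4 libraries, stacked by class: full-length, assigned to a transcript but not full-length, and assigned to the gene but to no transcript. Of 242 POU3F2 reads with a transcript 239 are full-length, the POU4F1 bars hold 0 full-length reads, and the MYT1L bar of the knockdown library holds 85 reads with no transcript of 137.

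No unannotated transcript was listed for any of the 10 factors. A single annotated transcript made up all transcript reads of NEUROG2 (ENST00000313341.4), NEUROD4 (ENST00000242994.4), POU4F1 (ENST00000377208.7), POU3F2 (ENST00000328345.8), NHLH1 (ENST00000302101.6) and BHLHE22 (ENST00000321870.3). ISL1 was mostly ENST00000230658.12, with 96.2%, 92.4%, 95.9% and 100% of its transcript reads. NEUROD1 was mostly ENST00000295108.4, with 20 of 20, 22 of 25, 20 of 26 and 10 of 11 reads. MYT1 was divided between ENST00000536311.5, with 52.0%, 52.1%, 51.1% and 49.0%, and a second transcript with the rest.

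Usage of transcripts within a gene, for which reads were rounded per transcript before they were summed (so totals can differ slightly from the reads with a transcript given above), was tested by Fisher's exact test for 10 transcripts of 4 of the factors, among 15446 transcripts in all. None was called in both pairs for either treatment. For azacytidine 0.479% of all transcripts were called higher and 0.641% lower, and for the knockdown 0.376% and 0.35%. One was called in a single pair, knockdown over control, where 3.5% of all transcripts were called lower and 3.5% higher: ENST00000648928.1 of MYT1L had 10 of 41 reads (24.4%, 13.8 to 39.3) in the control and 0 of 52 in the knockdown library (adjusted p = 0.00376). In the other knockdown pair it had 5 of 38 reads in the azacytidine and 0 of 55 in the combined library (adjusted p = 0.140). It had 0 uniquely assigned reads and 0 full-length reads in every library, so all its reads were divided with other transcripts of the gene. The most abundant MYT1L transcript, ENST00000647738.2, made up 31.7%, 51.9%, 31.6% and 32.7%, and passed no test.

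Exons of 13 other genes of the deposited annotation, 1 of them an unannotated gene added by Bambu (opposite NEUROD1), overlap those of 8 of the 10 factors, 12 of the 13 on the opposite strand. The sources used here do not say whether strand was used in counting, so reads of such pairs cannot be told apart with certainty. Of the 13, 3 had enough reads to be tested. ENSG00000288035, opposite ISL1, had 46, 35, 4 and 3 reads, NEUROG2-AS1 had 2, 3, 3 and 22, and CERKL, which shares the strand of NEUROD1, had 22, 4, 2 and 13. ENSG00000288035, like ISL1, had fewer reads in both drug-treated libraries, and NEUROG2-AS1 was highest in the combined library, where NEUROG2 had 5 reads.

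Close relatives of the factors were examined next. Of 15 family paralogues 6 were tested, and 2 were called for azacytidine, 1 in each direction. Over all genes tested, 2.56% were called higher and 6.19% lower for azacytidine. NEUROD2, a bHLH factor of maturing cortical neurons, rose, with 10, 12, 23 and 37 reads (log2 1.46 and 2.15, adjusted p = 0.0270 and 7.77e-06). ST18, the third gene of the MYT1 family, fell, with 103, 174, 27 and 21 reads (log2 -1.62 and -2.45, adjusted p = 5.53e-07 and 8.55e-18), while MYT1 and MYT1L were not lower in either azacytidine pair by gene reads. NHLH2 had 73, 50, 78 and 60 reads, ISL2 21, 26, 15 and 12, POU4F2 11, 14, 8 and 14, and POU3F1 21, 14, 13 and 8, and none of these was called in both pairs. Among those with too few reads to test, POU3F4 had 5, 9, 0 and 0, POU4F3 7, 5, 0 and 1, POU3F3 4, 6, 2 and 0, NEUROG1 3, 5, 0 and 0, BHLHE23 3, 4, 2 and 5, ATOH7 2, 1, 0 and 0, and NEUROG3 1, 0, 0 and 0. NEUROD6 and ATOH1 had 0 reads in every library. The median log2 ratios of the tested paralogues were -0.16 and 0.18 in the azacytidine pairs.

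The bHLH factors work with E proteins and against inhibitors of the ID and HES families. Of 13 such genes 7 were tested. Both E proteins that were called fell with azacytidine: TCF3 had 111, 128, 28 and 25 reads (log2 -1.68 and -1.76, adjusted p = 5.93e-08 and 6.48e-09), and TCF12 had 253, 361, 102 and 100 (log2 -1.01 and -1.28, adjusted p = 2.43e-08 and 2.60e-15). HES6, known to promote neurogenesis, was the one gene of the list called for the knockdown: it fell, with 28, 11, 26 and 8 reads (log2 -1.56 and -1.61, adjusted p = 0.0136 and 0.0338). None of the list rose, and its medians in the azacytidine pairs were -0.79 and -1.50. Over all genes tested, 6.19% were called lower for azacytidine and 0.363% for the knockdown.

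Of 21 other factors of neuronal conversion, all tested, 1 rose and 2 fell with azacytidine (2.56% and 6.19% of all genes tested). RCOR2, a corepressor of the REST complex, had 35, 68, 68 and 119 reads (log2 1.24 and 1.37, adjusted p = 0.000366 and 4.54e-09). REST, the repressor of neuronal genes in other cells, had 49 and 55 reads without the drug, 4 in the azacytidine and 0 in the combined library (log2 -3.17 in the first pair, adjusted p = 2.04e-07; at least 12.4-fold lower in the second at a limit of 3 reads per library, adjusted p = 2.27e-11). DLL1, a Notch ligand made by differentiating cells, had 46, 70, 13 and 12 (log2 -1.49 and -1.93, adjusted p = 0.00322 and 8.38e-06). None of the 21 was called for the knockdown, and the medians in the azacytidine pairs were 0.04 and -0.22.

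The labels call the cells cortical neurons. All 15 neuron markers were tested, and they summed to 3717, 3936, 4310 and 3669 CPM. Of 19 cortical subtype factors 14 were tested, and defining ones were low: TBR1 had 16, 18, 2 and 7 reads, EMX1 2, 4, 0 and 0, and BCL11B 0, 2, 0 and 0. With azacytidine 6 of the list fell and none rose (6.19% and 2.56% of all genes tested). Among those that fell were EMX2 (26, 36, 2 and 0 reads), LHX2 (42, 29, 4 and 5), RORB (12, 28, 0 and 1), NR2F1 (13, 26, 0 and 0) and NR2F2 (58, 77, 2 and 0). The list's medians were -1.67 and -2.10, with reads under 3 raised to 3 -1.57 and -2.10. Genes of peripheral and motor neurons, the fields of ISL1 and POU4F1, were present beside them. Of 19 in that list 12 were tested, and 4 fell with azacytidine (6.19% of all genes tested). Among them were DRGX (35, 67, 6 and 8 reads), NTRK2 (90, 123, 10 and 7) and SLC5A7 (50, 65, 9 and 8). MNX1, a defining motor neuron factor, had 0 reads in every library.

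Markers of other cells moved with azacytidine as well, beside the lower levels of POU3F2 and ISL1, neither of which was called in both pairs. The share of all genes tested that fell was 6.19%. Of 14 proliferation markers tested, 10 fell (MKI67, with 142, 154, 2 and 1 reads, and TOP2A, CDK1, CCNB1, BUB1, BUB1B, CENPF, TPX2, RRM2 and MCM2), and the list of 15 summed to 1610 and 1486 CPM without the drug and to 198 and 170 with it. Of 7 progenitor markers tested, 5 fell (PAX6, with 290, 313, 3 and 4 reads, SOX1, with 41, 36, 0 and 0, and VIM, PROM1 and SOX9), and the list of 10 summed to 1066, 881, 206 and 141 CPM. Of 5 pluripotency markers tested 2 fell, DPPA4 and SALL4, and the list summed to 579, 624, 387 and 419 CPM. LIN28A had 129, 200, 99 and 121 reads, LIN28B 64, 94, 42 and 41, and PRDM14 15, 8, 16 and 10. None of these was called in either azacytidine pair. NANOG had 0, 0, 2 and 0 reads and POU5F1 2, 0, 2 and 0. Of 4 glial markers tested 2 fell, SLC1A3 among them (sums 160, 115, 61.1 and 45.7), and AQP4 and MOG were at 0 in every library. Of 3 mesenchymal markers tested 1 fell, COL1A1 (sums 106, 103, 32.6 and 14.5). The part of these cells in the results for POU3F2, ISL1 and the subtype lists was not tested.

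**Figure D4:**
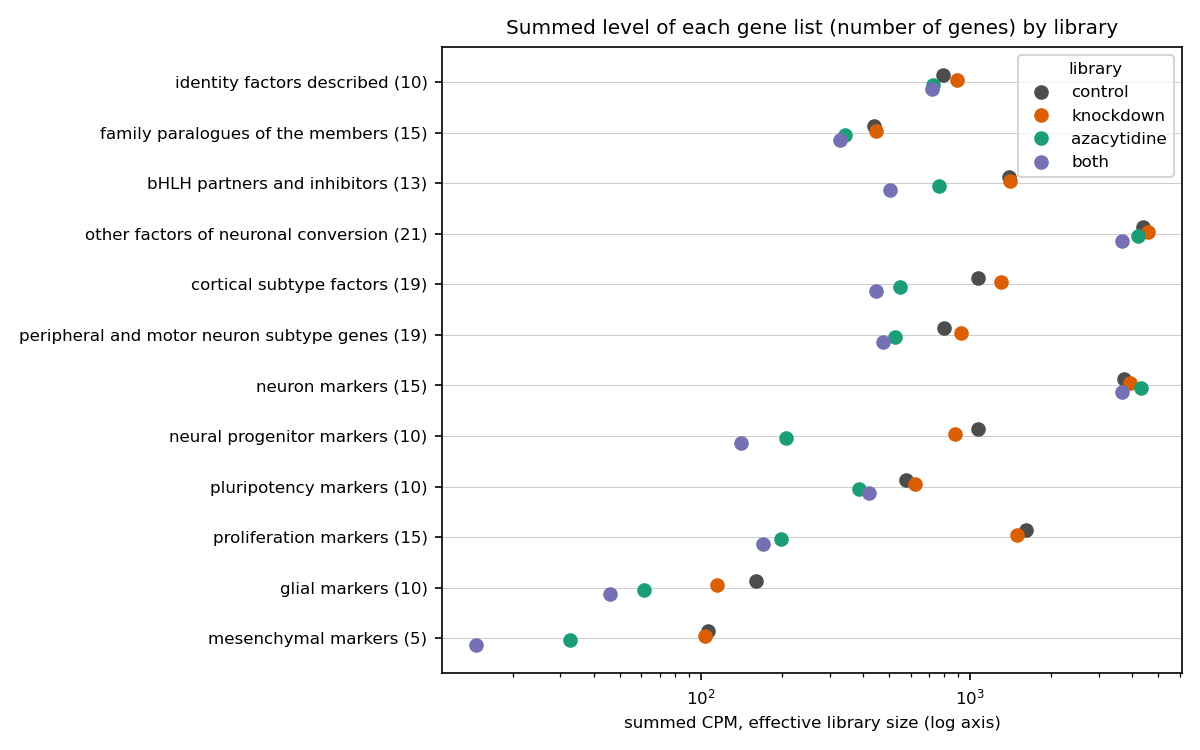
Summed level of each gene list (x axis, log scale: CPM on effective library size; number of genes in brackets) in the 4 libraries. The 10 identity factors lie between 722 and 896 in every library, while proliferation markers lie at 1610 and 1486 without azacytidine and at 198 and 170 with it. The factors' sum joins genes whose levels differed in opposite directions. From the control to the azacytidine library POU3F2 went from 163 to 61.1 CPM and MYT1L from 88.1 to 153. The MYT1L difference was under 2-fold and not called. Its log2 ratio was -0.0655 over reads assigned to transcripts.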

How the data were processed

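PacBio Iso-Seq libraries of polyadenylated RNA, 1 per group, were grouped by the treatment label. First strands were made with MarathonRT, per the labels' protocols. Per the file headers, minimap2 aligned the reads to hg38 and Bambu assigned them to transcripts; versions and settings are not given in the sources used here. The authors deposited estimated (expected) counts per gene and per transcript, full-length estimated counts per transcript, and uniquely assigned counts. Gene values lay within 0.00031 of an even number in all cases, so all deposited counts were divided by 2 and rounded.

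Effective library sizes were TMM sizes (edgeR 4.0.16, R 4.3.3). Gene ratios (pseudocount 0.5) were tested by exact binomial tests and differences between backgrounds by an exact conditional test (SciPy 1.17.1), all two-sided, with Benjamini-Hochberg adjustment over 13789 genes. Transcripts needed 10 reads in total, genes a mean of 20 transcript reads, and calls a change of 10 percentage points in both pairs. The scripts were tested on simulated data. The factors and gene lists were chosen with earlier results of these data known. Named were all 10 factors, every paralogue, the members of other lists called in both pairs, each factor's most abundant transcript and any called one, and the 3 genes most like NEUROG2; others named in the text (cell type markers that define a type, overlapping genes) were chosen after their values were seen. Alternatives were other library sizes (total counts, DESeq2 1.42.0 size factors), another pseudocount, other read classes, counts as deposited, other filters and thresholds, and additive models in edgeR and DESeq2. The authors' CPM table was not used. Some genes that the naming rule covers are not reported here.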

Additional observations from a re-analysis of the deposited data

How the results depend on the processing

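The number of factors called for azacytidine was 0, and it became 1 (POU3F2, lower) with sums of full-length reads, with the adjusted p alone and with the additive edgeR model. The number called for a difference between backgrounds became 2 with counts as deposited (NEUROD1 and NHLH1) and 3 with 2-fold alone (NEUROG2 too). The number of transcripts called in usage became 2 with counts as deposited. The number called for the knockdown stayed 0 under every alternative run. Halving fixes the number of reads behind each test, so the counts as deposited give smaller p-values by construction; the cause of the other shifts was not tested. Over all genes, the calls numbered 1207 for azacytidine, 581 with sums of transcript reads, 278 with uniquely assigned reads, 44 with full-length reads, 2035 with counts as deposited, 2084 with 2-fold alone and 203 with the additive DESeq2 model. For the knockdown they numbered 104, and 12, 13, 5, 376, 536 and 10 in the same order, 236 with the adjusted p alone and 12 with the additive edgeR model.

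Of the single factors' ratios recomputed under the alternatives, 213 kept their direction and call, 6 gained a call, 3 lost one (all MYT1L in knockdown over control) and 10 turned sign, none of them called. NEUROG2 in azacytidine over control gained a call with total counts (1.47). With total counts the sign changes were NEUROD4 in combined over knockdown (0.024) and POU3F2 in knockdown over control (-0.041). With transcript sums they were ISL1 (-0.19) and POU4F1 (0.021) in knockdown over control and MYT1L in azacytidine over control (-0.0655). With uniquely assigned reads they were NEUROD1 (-0.29), ISL1 (-0.12) and POU4F1 (0.063) in knockdown over control and MYT1 in azacytidine over control (-0.0080). With full-length reads it was ISL1 in azacytidine over control (0.15). Total counts in place of TMM sizes moved the median of all genes to 0.09 for combined over knockdown and -0.09 for knockdown over control. No paired analysis was possible because each group had 1 library and the groups shared only 1 replicate number. Depth limits NEUROG2, NHLH1 and BHLHE22 most, with 16 to 38 reads each over the 4 libraries.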

Other observations

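Of 15 neuron markers, 2 passed the test in both pairs, each for 1 treatment. Over all genes tested, 2.56% were called higher for azacytidine and 0.392% for the knockdown. RBFOX3, which encodes the nuclear antigen NeuN of mature neurons, had 35, 39, 90 and 131 reads (order as above), and rose with azacytidine (log2 1.64 and 2.30, adjusted p = 6.23e-08 and 3.11e-20 by the exact binomial test). ELAVL4, a neuronal RNA-binding protein, had 89, 256, 63 and 164 reads and rose with the knockdown (log2 1.27 and 1.40, adjusted p = 6.67e-12 and 1.14e-09). The list's median log2 ratios were 0.40 and 0.22 in the azacytidine pairs, and single markers went either way. GAP43 had 118, 126, 181 and 191 reads. Its azacytidine ratios were 0.91 (adjusted p = 2.20e-06, under 2-fold) and 1.17 (adjusted p = 3.63e-11), by the same test. MAP2, a dendritic microtubule protein, had 540, 761, 319 and 162 reads, with azacytidine ratios of -0.47 (adjusted p = 7.93e-05, under 2-fold) and -1.66 (adjusted p = 6.46e-47). NEFL, the light neurofilament chain, had 343, 360, 250 and 114 reads and was called lower in combined over knockdown (-1.09, adjusted p = 5.21e-12) and combined over azacytidine (-1.10, adjusted p = 5.93e-10), which share the combined library. GAP43, MAP2 and NEFL were chosen after their values were seen.

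The read pattern of NEUROG2, highest with azacytidine alone, was also that of INSM1, a zinc finger factor of neurogenesis, with 8, 9, 18 and 5 reads (combined over azacytidine log2 -1.72, adjusted p = 0.0830). DLL3, a Notch ligand gene induced by proneural factors, had 37, 22, 48 and 23 reads, and combined over azacytidine was -1.02 (adjusted p = 0.0429) beside -0.99 for knockdown over control (adjusted p = 0.0797). INSM1 and DLL3 were chosen after their values were seen, and no test of a shared pattern was run.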
